A study of Equus caballus with 20 samples.

Results

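MiR-21 and miR-132 are microRNAs that rise in granulosa cells after luteinizing hormone (LH) in rodents, and their levels were followed in extracellular vesicles of follicular fluid of mares across 5 stages of follicle growth. They were taken by name (eca-miR-21 and eca-miR-132, with the horse prefix left out from here on), as 2 of 686 microRNA names in the deposited table, of which 325 were above 0 in any library. The fluid came from mares of 8 to 14 years, 19 in all, with a normal reproductive tract, after all follicles had been ablated to start a fresh wave. Follicles of 18 to 20 mm were predeviation, those of 22 to 25 mm deviation, those of 26 to 29 mm postdeviation and those of 30 to 35 mm preovulatory. The last stage, impending ovulation, was defined by signs of imminent ovulation. Each stage held 4 libraries, none from hormone-treated or untreated control animals, and which mare gave which library is not stated. With 20 libraries and 19 mares, some would share a mare, so a p-value here rests on the spread between libraries, not between mares. The test used, limma, takes that spread partly from the microRNA itself and partly from the other tested microRNAs. Values are scaled reads, the whole reads of a library times 1 factor of that library.

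LH acts on granulosa and theca cells of a growing follicle, and its surge drives ovulation and the change of granulosa cells into luteal cells. MiR-21 lowers apoptosis in mouse granulosa cells and represses PDCD4, a tumour suppressor, in many cell types, and it is also abundant in leukocytes, epithelia and stroma. MiR-132 is transcribed together with miR-212 in a cluster driven by CREB, the factor through which cAMP acts, and it lowers CTBP1, a corepressor, in mouse granulosa cells. The name LH-responsive thus comes from other species and from cells rather than vesicles, and no LH level is given for these follicles.

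MiR-21 was among the leading microRNAs in every library, while miR-132 was close to the limit of detection. MiR-21 held 153932 of the 1457859 recovered reads and averaged 11.1% ± 7.73 (SD, n = 20) of a library. It ranked first in 2 libraries, second in 9 and from the third to the eighth place in the other 9. MiR-132 had 89 reads in all, in 16 of 20 libraries, with at least 5 reads in 7 of them. Libraries held 27131 to 110130 reads, and preovulatory 3 and impending ovulation 2 were the only ones under 40000.

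At predeviation miR-21 stood at 216708, 194377, 321671 and 46810 scaled reads in libraries 1 to 4. Library 4 was far below the other 3. It was also the library with the highest level of miR-148a, at 828709 scaled reads against 264904 to 276040 in the other 3. Its scaled reads also had the highest total of any library, 1778185, which widens such gaps. As a share of reads miR-148a was 46.6% there, against 24.3% to 24.7% in the other 3. At deviation miR-21 was at 100644, 36144, 227935 and 178299, and library 2 was the low one. At postdeviation it was at 24882, 88832, 27966 and 147878, so that libraries 1 and 3 were low and libraries 2 and 4 high. Preovulatory libraries held 30344, 109323, 216068 and 27871, and again a pair was low, libraries 1 and 4. At impending ovulation the values were 42636, 39529, 76684 and 149687, a narrower span than at the other stages.

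The order of the stage means was predeviation (194892 ± 113251 scaled reads, SD, n = 4), deviation (135756 ± 84582), preovulatory (95901 ± 88593), impending ovulation (77134 ± 51213) and postdeviation (72390 ± 58308). No neighbours in that order were apart by more than their SD. Without preovulatory library 3 the preovulatory mean was 55846, below the other 4 stages, and without postdeviation library 4 the postdeviation mean was 47227. Of the 10 pairs of stages, 0 had miR-21 ranges that did not overlap, where 6.17% of all pairs of stages over the 264 tested microRNAs had none. The highest library of a stage exceeded the lowest by 3.79 times at impending ovulation and by 5.94 to 7.75 times at the other 4 stages. As a share of all reads in a library, miR-21 averaged 17.2% ± 10.7 at predeviation, 12.3% ± 6.94 at deviation, 7.57% ± 5.77 at postdeviation, 10.1% ± 8.65 at preovulatory and 8.30% ± 5.28 at impending ovulation. Counting error was small beside this spread. Within predeviation alone, the share was 28.3% in library 3 (exact 95% binomial interval 27.9 to 28.7) and 2.63% in library 4 (2.53 to 2.74).

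**Figure D1:**
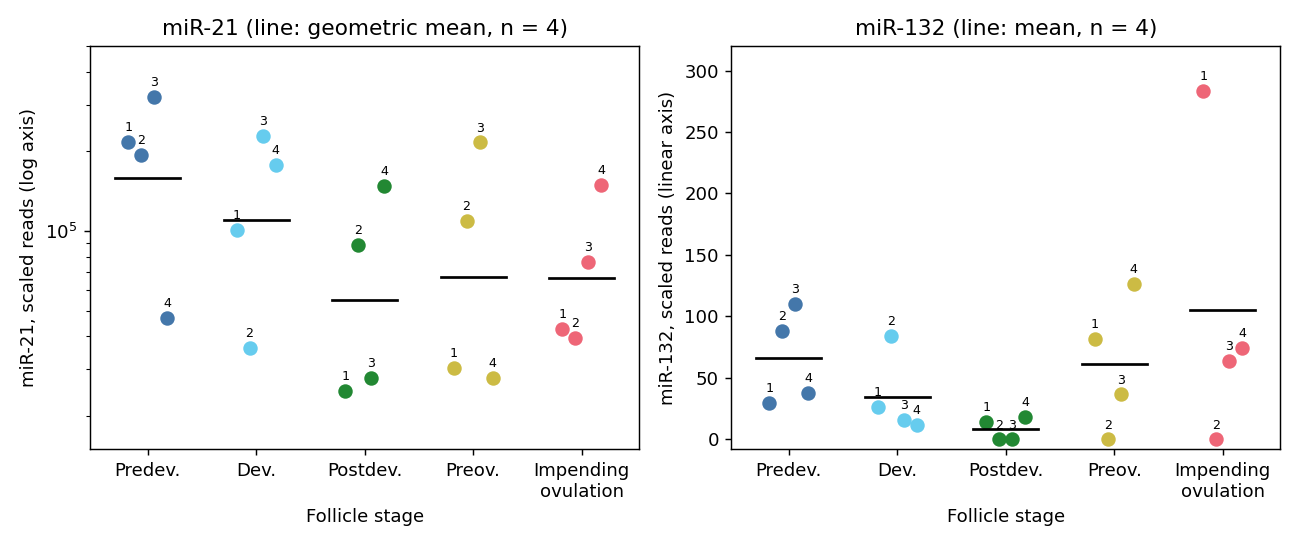
Scaled reads of miR-21 (left, log axis, line at the geometric mean) and miR-132 (right, linear axis, line at the mean) in each of 20 libraries, by stage, with n = 4 and points numbered by library. MiR-21 ranges overlap between all stages, and miR-132 is at most 17.9 at postdeviation against at least 29.5 at predeviation.

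Neither microRNA passed the threshold (limma adjusted p under 0.05 over 264 tested microRNAs) in any comparison made. The F test over the 5 stages called 4.92% of tested microRNAs, and gave miR-21 an adjusted p = 0.497 and miR-132 0.522 (limma). The linear trend over the stage order called 5.68%. For miR-21 the fitted slope was -0.32 ± 0.16 (SE) log2 units per stage step (95% interval -0.66 to 0.01, limma adjusted p = 0.243), and for miR-132 it was -0.16 ± 0.39 (-0.96 to 0.63, limma adjusted p = 0.838). When limma weighted libraries by how closely they followed their stage, miR-21 did pass in both, with adjusted p = 0.0379 in the F test and 0.0288 in the trend (slope -0.47). That setting, one of 15 alternatives for either test, gave preovulatory 3, predeviation 4 and preovulatory 2 the lowest weights (0.493, 0.546 and 0.557). Without both libraries under 40000 reads, the slope of miR-21 was -0.33 (limma adjusted p = 0.291).

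Postdeviation against predeviation compares follicles after and before a dominant follicle is selected, and 6.06% of tested microRNAs were called. MiR-21 had a fitted log2 difference of -1.53 ± 0.72 (95% interval -3.02 to -0.03, unadjusted p = 0.0454, limma adjusted p = 0.279), with 2 of 4 postdeviation libraries below all of predeviation. The median of all 264 was -0.31 on this scale. It moved to 0.025 with every library brought to the same total and to -0.021 with quantile normalization, where miR-21 had -1.11 (limma adjusted p = 0.527) and -0.92 (0.501). The difference was -2.12 without predeviation 4, with an adjusted p between 0.0819 and 0.554 over the 20 libraries left out in turn. Impending ovulation against predeviation shares the predeviation libraries with it and called 5.68%. There the log2 difference of miR-21 was -1.26 ± 0.72 (-2.75 to 0.24, limma adjusted p = 0.367), with 2 of 4 libraries below all of predeviation.

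Between consecutive stages, the interval of the miR-21 difference included 0 each time. Deviation against predeviation (0.379% called) gave -0.53 (95% interval -2.02 to 0.97, limma adjusted p = 0.891), and postdeviation against deviation -1.0 (-2.50 to 0.49, limma adjusted p = 0.841). Preovulatory against postdeviation gave 0.28 (-1.21 to 1.78, limma adjusted p = 0.903). Impending ovulation against preovulatory, the step closest to ovulation, gave -0.01 (-1.51 to 1.48, limma adjusted p = 0.995), so a rise of up to 2.80 times lies within its interval. In the last 3 of these comparisons limma called 0% of tested microRNAs, with 16, 28 and 24 at an unadjusted p under 0.05. EdgeR called 0 in each of the 3, and DESeq2 called 3, 0 and 3.

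**Figure D2:**
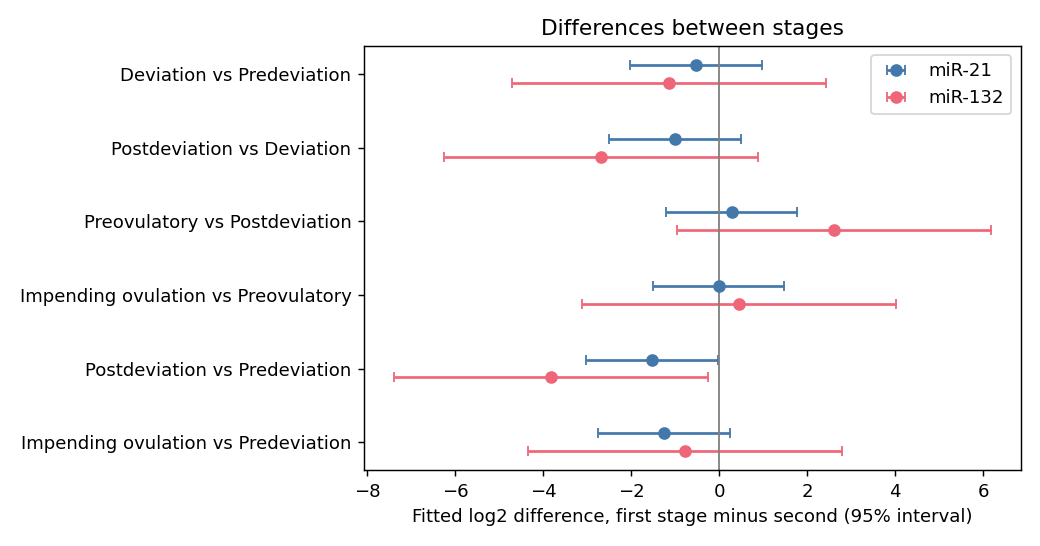
Fitted log2 differences of miR-21 and miR-132 between stages (x axis, first stage minus second), with unadjusted 95% intervals from limma, for 6 pairs of stages with n = 4 each. Intervals of both exclude 0 only for postdeviation against predeviation, where limma adjusted p was 0.279 and 0.274.

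The spread of miR-21 between libraries of the same stage was wide for so abundant a microRNA. Its within-stage SD was 1.21 on the log2(value + 1) scale, first among the 10 most abundant microRNAs, whose median was 0.560, and eighth among the 50 most abundant (median 0.585). MiR-148a, the most abundant, had 0.440, and miR-192, a microRNA of liver and gut, 0.407. The nearest of the 10 was smooth muscle miR-143, with 1.06. Stage accounted for 22.5% of the variance of miR-21, against 59.1% for miR-148a, 76.3% for miR-192 and a median of 26.7% over all 264. These shares are not corrected for the 5 fitted means, so they lie well above 0 even without a stage difference. The limma F test is not a test of these shares, since it draws the spread of each microRNA toward that of others of similar abundance. For miR-21 the spread it used was smaller than its own. The F test gave an unadjusted p of 0.228 for miR-21 and 0.265 for miR-132 (limma). With that dependence on abundance turned off, F of miR-21 was 1.11 instead of 1.53 (limma adjusted p = 0.621 against 0.497). MiR-132 had a within-stage SD of 2.47 and a stage share of 26.7%, at a mean of 55.1 scaled reads where single reads weigh heavily.

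**Figure D3:**
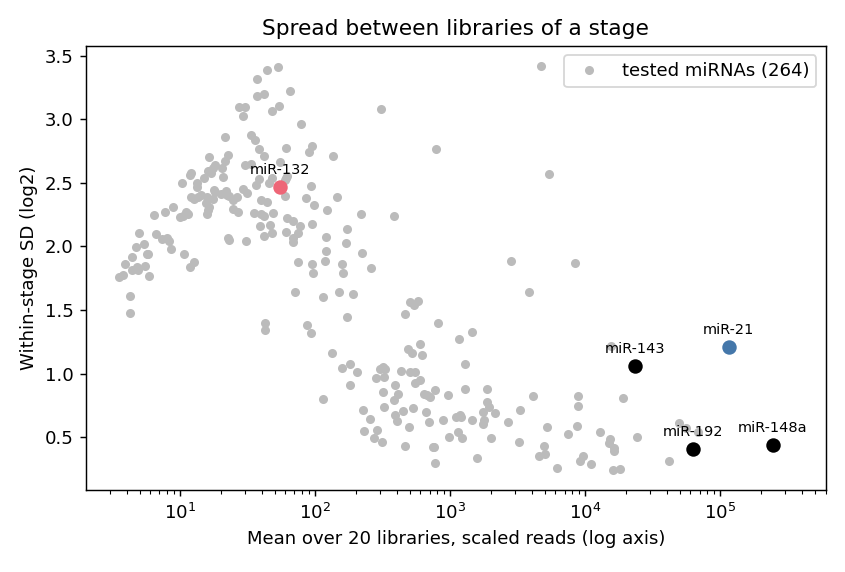
Within-stage SD on the log2(value + 1) scale against the mean over 20 libraries (scaled reads, log axis), 1 point per tested microRNA (264). MiR-21 lies at 1.21, above miR-148a (0.440) and miR-192 (0.407) at the abundant end, and miR-132 at 2.47 lies among scarce microRNAs.

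MiR-132 was sparse at every stage and lowest at postdeviation. At predeviation its scaled reads were 29.5, 88.1, 110 and 38.1 in libraries 1 to 4, which stand for 2, 9, 4 and 2 reads. At deviation they were 26.3, 84.4, 15.8 and 11.9, with 10 reads in all and 6 of them in library 2. At postdeviation they were 14.4, 0, 0 and 17.9, from 1 read each in libraries 1 and 4. All 4 postdeviation libraries were therefore below all 4 predeviation ones, as were 4.92% of tested microRNAs. This was the only one of 10 pairs of stages whose miR-132 ranges did not overlap, where 6.17% of all pairs over the tested microRNAs did not.

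In the later stages miR-132 was spread over the widest range. Preovulatory libraries held 81.7, 0, 36.5 and 127, with 28 of the 29 reads in libraries 1 and 4. Impending ovulation libraries held 283, 0, 63.5 and 74.3, with 19 of 31 reads in library 1. Library 1 of impending ovulation had the highest value of all, 0.0334% of its reads (exact 95% interval 0.0201 to 0.0522). Library 2 of that stage had 0 of 29862 reads, which allows a share of up to 0.0101% at a floor of 3 reads. Per stage, the pooled share of miR-132 was 0.00533% at predeviation (exact 95% interval 0.00311 to 0.00854), 0.00316% at deviation, 0.000769% at postdeviation (9.31e-05 to 0.00278), 0.00942% at preovulatory and 0.0122% at impending ovulation. These intervals and floors cover counting error only, since reads carry no molecular identifiers.

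The fitted log2 difference of miR-132 between postdeviation and predeviation was -3.83 ± 1.73 (95% interval -7.40 to -0.26, limma adjusted p = 0.274). In reads it was 2 against 17, a ratio 9.21 times lower at the deposited scale with a counting interval of 2.19 to 82.2. The fitted size depends on the pseudocount and the model, and ran from -4.33 to -2.09 over 15 alternatives, with adjusted p from 0.164 to 0.394. Preovulatory against postdeviation, which shares the postdeviation libraries, had 29 against 2 reads, 11.3 times higher (counting interval 2.86 to 97.7), with a fitted log2 difference of 2.60 ± 1.73 (limma adjusted p = 0.553). In that pair 3 of 4 preovulatory libraries lay above all of postdeviation. Postdeviation against deviation gave -2.69 (limma adjusted p = 0.780) and deviation against predeviation -1.14 (0.891). Impending ovulation against preovulatory gave 0.45 (95% interval -3.12 to 4.02, limma adjusted p = 0.931). For impending ovulation against predeviation, the fitted value of -0.77 (limma adjusted p = 0.848) and the means, 105 ± 123 against 66.4 ± 38.9 scaled reads, point in opposite directions. Without impending ovulation 2, which is at 0, it was 0.93.

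The library highest in miR-132 was also the highest in miR-21 at 2 of 5 stages and another one at 3. Deviation library 2 had the lowest miR-21 of its stage and the highest miR-132. At preovulatory, libraries 1 and 4 had the least miR-21 and the most miR-132, and libraries 2 and 3 the reverse. Library 3 there had 1 miR-132 read of 27131, an exact 95% interval of 9.33e-05 to 0.0205%. This includes the shares of libraries 1 (0.00948%) and 4 (0.0164%), so its place below them in miR-132 is not settled. At impending ovulation, library 1 had the most miR-132 and library 4 the most miR-21. Predeviation library 3 was the highest of its stage in both, and so was postdeviation library 4, there on 1 read of miR-132. The lead of predeviation 3 in miR-132 rests on 4 reads. Its exact 95% interval of 0.0026 to 0.0248% includes the share of library 2 (0.00817%), so that lead is not settled either. At this depth no correlation is given for miR-132.

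Other microRNAs tied to LH were read beside the pair. MiR-212, the cluster partner that shares the miR-132 seed in mammals, had 3 reads in all, 1 each in deviation 3, deviation 4 and postdeviation 1, too few to test. MiR-590-5p, which shares the miR-21 seed in human, was listed at 0 in every library. Of 7 microRNAs linked to the LH receptor or to luteinization, 6 were tested and 1 passed in any of the 6 pairs of stages or the trend, where 8.71% of all tested microRNAs passed. This was miR-96, which promotes survival of bovine luteinized granulosa cells, with 1 read at postdeviation against 86 at predeviation (limma adjusted p = 0.0110, but 0.0588 without predeviation 2). The median log2 difference of the 6 was -1.18 there, against -0.31 over all tested. MiR-122, which lowers LH receptor mRNA in rat ovary, was at 11485 ± 6697 scaled reads at postdeviation and 6774 ± 6393 at predeviation (log2 0.97, limma adjusted p = 0.285). It passed in 1 of 16 alternatives, with libraries at equal totals (log2 1.40, limma adjusted p = 0.0420). Of 20 libraries left out in turn, it passed only without predeviation 4 (log2 1.53, limma adjusted p = 0.0195). Over these fits its log2 difference went down to 0.63 and its limma adjusted p up to 0.58. MiR-182, of the same cluster as miR-96, was at 1136 ± 774 at impending ovulation and 248 ± 135 at preovulatory (log2 2.05, unadjusted p = 0.00204, limma adjusted p = 0.134). It passed in 2 of 16 alternatives, with library weights (0.0470) and with DESeq2 (0.0177). With 20 libraries left out in turn its limma adjusted p was at least 0.0924.

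Of 9 microRNAs described as granulosa regulators, 7 were tested and 0 passed in the 6 pairs or the trend (limma), against the same 8.71% of all tested, a share at which 0 of 7 does not set them apart. Over these 7 the median log2 difference between postdeviation and predeviation was -0.17. MiR-378, which represses aromatase in pig granulosa cells, was the most abundant of them. Its means ran from 7964 ± 2700 scaled reads at preovulatory to 10869 ± 1733 at predeviation, a far narrower span than that of miR-21. MiR-145 was at 322 ± 515 at impending ovulation and 744 ± 362 at predeviation (log2 -2.30, limma adjusted p = 0.0856). It passed in 1 of 16 alternatives, with library weights (0.0265). Of 20 libraries left out in turn, it passed only without impending ovulation 4 (log2 -3.31, limma adjusted p = 0.00407). Over these fits its limma adjusted p went up to 0.282. Over the 16 alternatives (limma, edgeR or DESeq2) its log2 difference ran from -2.66 to -0.96, with adjusted p up to 0.609. MiR-383 was listed at 0 at predeviation, deviation and impending ovulation, with 3 reads at postdeviation and 5 at preovulatory.

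The microRNAs whose levels were most like those of miR-21 over the 20 libraries were miR-221, miR-140-3p, miR-142-5p, miR-652 and miR-200a. Likeness was Pearson's r of log2(value + 1) among 263 tested microRNAs, whose median r was -0.02, and it is given as a description without a p because the highest values were selected. MiR-221, a microRNA that represses the cell cycle inhibitor p27, had r = 0.849 (Spearman's rho = 0.835), and 0.857 once stage means were removed. Its scaled reads were 427.5 to 2584. The other r were 0.838 for miR-140-3p, abundant in cartilage, 0.826 for miR-142-5p, of blood cells, 0.788 for miR-652 and 0.762 for miR-200a, of epithelia. Spearman's coefficient was 0.839, 0.858, 0.792 and 0.692 in that order. Without the 2 libraries farthest from the median of miR-21, postdeviation 1 and predeviation 3, r of the 5 was between 0.752 and 0.831, and with libraries at equal totals between 0.726 and 0.833. For all but miR-200a, r with miR-21 was above 0 within each of the 5 stages. MiR-142-5p and miR-652 were scarce, with 182 and 107 reads in all.

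At the other end, miR-25 ran opposite to miR-21. It belongs to the miR-106b-25 cluster, in an intron of MCM7, and had r = -0.700 (rho = -0.705), -0.731 without those 2 libraries, -0.892 after removal of stage means and -0.823 at equal totals. The r of the other cluster members, named after their values were seen, was -0.192 (rho = -0.126) for miR-93 and 0.121 (rho = 0.157) for miR-106b. Predeviation library 4, low in miR-21 and with the highest total of scaled reads, held 10908 scaled reads of miR-25 against 2742 to 4151 in the other 3. In reads this was 573 of 93410, against 269 of 73994, 280 of 110130 and 151 of 41360 in libraries 1 to 3. Deviation library 2 held 9602 against 4479 to 5101, and preovulatory libraries 1 and 4 held 8309 and 7608 against 4468 and 3030. The next lowest were miR-301b-5p (r = -0.681, rho = -0.671), miR-9a of neurons (-0.649, -0.698), miR-206 of skeletal muscle (-0.620, -0.597) and miR-137 (-0.605, -0.595), of which miR-301b-5p and miR-137 had only 26 and 78 reads. All microRNAs of a library share its depth and scaling factor, and each r is over the same 20 values of miR-21.

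**Figure D4:**
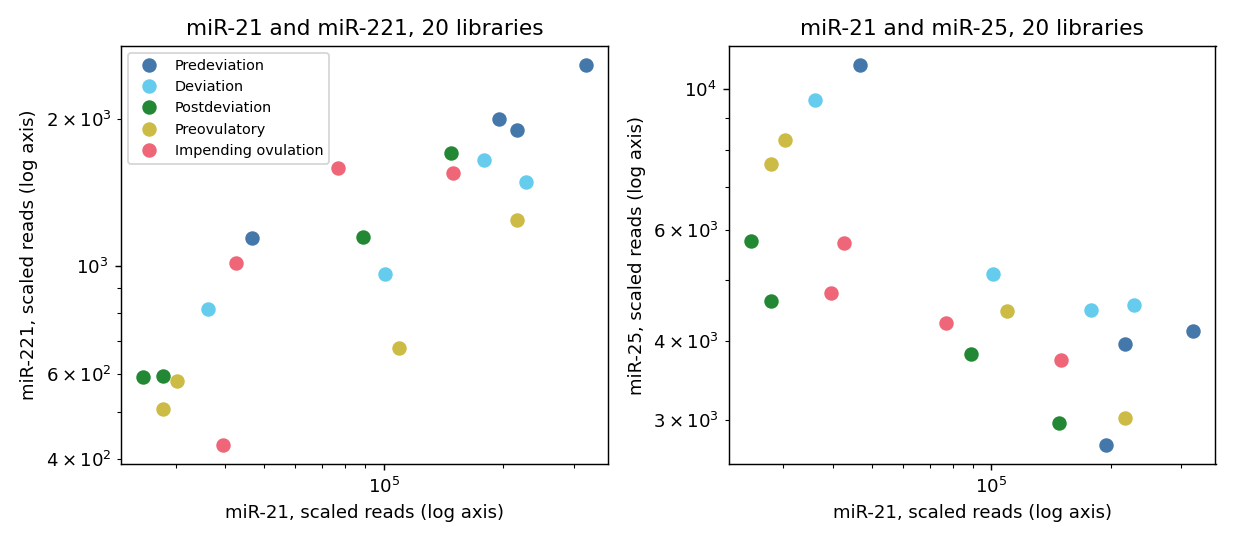
Scaled reads of miR-221 (left) and miR-25 (right) against those of miR-21 in 20 libraries, all axes log, coloured by stage. Over all libraries MiR-221 rises with miR-21 (r = 0.849) and miR-25 falls (r = -0.700). After removal of stage means r is 0.857 and -0.892.

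Markers of other cell types varied with miR-21 as well. In bulk fluid, fewer vesicles from a cell type and less of a microRNA per vesicle cannot be told apart. All 7 leukocyte markers were above 0. Their summed level was 7881 to 10363 scaled reads at predeviation and 4490 to 6666 at postdeviation, ranges that did not overlap. In this pair 4.92% of tested microRNAs were lower at postdeviation without overlap. The sum was mostly miR-146a (mean of 4497 scaled reads) and miR-146b-5p (1451), while miR-223 had a mean of 92.8. Deviation libraries had sums of 6861 to 8112, preovulatory ones 2843 to 7958 and those of impending ovulation 5586 to 9067. Over the 20 libraries the leukocyte sum had r = 0.564 (rho = 0.583) with miR-21, and 0.448 without the 2 farthest libraries. Its single members had r from 0.078 (miR-150) to 0.826 (miR-142-5p). All 5 epithelial markers were above 0, with sums of 4701 to 13600 at predeviation and 1976 to 7724 at postdeviation, and r = 0.713 (rho = 0.695, 0.742 without the 2). Single epithelial members had r from 0.354 (miR-141) to 0.762 (miR-200a). Their part in the values of miR-21 was not tested. The epithelial list holds miR-200a and the leukocyte list miR-142-5p, both named above for their likeness.

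The other lists had lower r over all 20 libraries. The r was 0.519 for the pair miR-143 and miR-145, of theca and smooth muscle, 0.486 for the 2 arms of endothelial miR-126 and 0.358 for 4 red cell markers (rho = 0.535, 0.460 and 0.355). Without the 2 farthest libraries these were 0.561, 0.410 and 0.348, so the first then exceeded the leukocyte list. Of 3 granulosa markers, miR-383 and miR-224 were matched by name, and together they reached at most 183 scaled reads in a library, with 0 in 1 or more libraries at preovulatory and impending ovulation. Their sum had r = 0.358 with miR-21 (rho = 0.230), and 0.371 without the 2 farthest libraries. These markers were thus near the limit of detection at this depth.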

How the data were processed

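Small RNA of vesicles pelleted by ultracentrifugation was sequenced in 20 libraries with the TruSeq Small RNA kit, per the labels' protocols. Per the submitters' processing notes, bcl2fastq, Bowtie2 2.2.2, DESeq2 and the build EquCab3.0 were used, with no role given. For the miRNA annotation and the counting settings, the sources used here give nothing. The deposited values are a scaled read signal that the authors named CPM. Columns summed to 774632 to 1778185, and 100% of values above 0 were whole multiples (tolerance 1e-06) of the smallest one in the column, worth 7.04 to 36.5, so reads were recovered by division. The log2 test planned for CPM was kept.

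The 264 microRNAs that reached 10 scaled reads in 4 or more libraries entered a limma fit (3.58.1, R 4.3.3, variance trend on) of log2(value + 1), with a mean per stage and Benjamini-Hochberg adjustment within a comparison. P-values are two-sided. Fold changes on this scale depend on the pseudocount for scarce microRNAs. Checked alternatives included edgeR 4.0.16 and DESeq2 1.42.0 on recovered reads. The code was tested on simulated data. Groups came from sample titles. The members, lists, naming rule and tests were chosen with earlier results of these data known. The naming rule took both members in every library, list members past the threshold or most abundant, and the 5 highest and 5 lowest r for a member with at least 5 reads in at least 10 libraries, which miR-132 did not reach. It also named microRNAs sharing a seed, which were taken from general knowledge, not from sequences. Every pair of replicates differed by more than counting noise (chi-square over its degrees of freedom at least 15.6).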

Additional observations from a re-analysis of the deposited data

How the results depend on the processing

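Over the alternatives tried miR-132 did not pass the threshold in any comparison, and miR-21 passed only with library weights, in the F test (F = 4.80, limma adjusted p = 0.0379) and the trend (slope -0.47, 0.0288). The cause was not tested. Fitted log2 differences that changed sign were all far from the threshold. For miR-21 between preovulatory and postdeviation, 0.28 became -0.23 with library weights and -0.28 without both libraries under 40000 reads. Between impending ovulation and preovulatory, -0.01 became 0.034 with median-of-ratios rescaling, 0.67 with weights and 0.80 without both shallow libraries. The slope of miR-132, -0.16, became 0.025 at a pseudocount of 10, 0.11 with weights, 0.24 with edgeR and TMM, 0.23 with edgeR on the deposited scale, 0.25 with DESeq2 and 0.16 without both shallow libraries. Its difference between impending ovulation and predeviation, -0.77, became 0.72, 0.70 and 0.79 with these 3 count tests and 0.93 without both shallow libraries, and that between impending ovulation and preovulatory, 0.45, became -0.30 with weights.

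With each of 20 libraries left out in turn, the signs that turned were, for miR-21, those of deviation against predeviation (-1.11 to 0.011), preovulatory against postdeviation (-0.28 to 0.76) and impending ovulation against preovulatory (-0.43 to 0.55). For miR-132 they were those of impending ovulation against preovulatory (-1.10 to 2.15) and against predeviation (-1.79 to 0.93) and of the slope (-0.37 to 0.18). MiR-132 had no value with a mean of at least 100 required.

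Replicate numbers in the titles are shared between stages. Deviations of same-numbered libraries had correlations of -0.281 to 0.298 (4 of 40 over 0.1), so the numbers were not taken to pair libraries. With the replicate block, miR-21 between postdeviation and predeviation had limma adjusted p = 0.299, and the block changed no call of either member.

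Stage mean shares moved by less than 1 SD with miR-148a left out of the sum, but the SDs are wide. With medians or without a library a move under 1 SD holds for any 4 values. By that measure neither of these checks could fail, and nothing is drawn from them. Moves of over 1.5 times by 1 library were, for miR-21, at preovulatory (10.1% to 6.18% without library 3) and, for miR-132, at deviation (0.00329% to 0.00173% without library 2), postdeviation (0.000896% to 0.000590% without library 4), preovulatory (0.00738% to 0.00439% without library 4) and impending ovulation (0.0119% to 0.00473% without library 1). Depth limits miR-132, whose stages rest on 2 to 31 reads.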
